A study of Mus musculus with 12 samples.

Results

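Broad H3K4me3 domains were defined as the peaks of at least 5000 bp in the DMSO H3K4me3 list of Min6, a line grown from a mouse insulinoma that serves as a model of β cells. They numbered 565 of 19372 peaks (2.92%) and held 3.67 of the 39.7 Mb under the mark (9.25%). The domains were chosen on their DMSO width, so DMSO width and every other measure of that list are given as description, without a test. All 12 samples were Min6 cells, a single tumour line. They received 20 µM SP600125, which blocks JNK (JNKi), or its solvent DMSO for 48 hours. CUT&RUN, which cuts out DNA bound by an antibody's target, then used 550000 cells per reaction and an IgG, cJun or H3K4me3 antibody, giving 6 groups of 2 biological replicates. The 4 peak lists analysed here (cJun and H3K4me3, each in DMSO and in JNKi) combine the replicates of a group, so most values below carry no error between replicates. In those values treatment and library cannot be told apart. Most results on the treatment below therefore compare lists. Those that set replicate columns side by side rest on 2 replicates per group. Read totals and copy number of the Min6 genome were not analysed here. Intervals in brackets are at 95% and cover counting error only (Wilson for shares, Poisson for densities, order statistics for medians).

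H3K4me3 is a histone mark laid down by SET1 and MLL type methyltransferases around active promoters. Most promoters carry a narrow block of the mark at the start of transcription. A minority carry a block that runs far into the gene, and in many cell types such broad domains are known to lie at genes that define the identity of the cell. In β cells these include the transcription factors Pdx1, Nkx6-1, Isl1, Pax6, Neurod1 and Nkx2-2. cJun is a basic leucine zipper factor that, as part of AP-1 dimers, binds the sequence TGACTCA or its reverse complement TGAGTCA.

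The sequence at the starts of domain genes ranged from rich in CpG dinucleotides to free of them, as 4 promoters show. Each line below gives 150 bases of GRCm38 directly upstream of the annotated 5′ end of the gene, on the strand of the gene, with CpG in capitals. The windows lie at chr13:116309690-116309839 (minus strand) for Isl1, chr2:105668750-105668899 (plus) for Pax6, chr5:147269809-147269958 (plus) for Pdx1 and chr6:142298273-142298422 (plus) for Iapp.
Isl1: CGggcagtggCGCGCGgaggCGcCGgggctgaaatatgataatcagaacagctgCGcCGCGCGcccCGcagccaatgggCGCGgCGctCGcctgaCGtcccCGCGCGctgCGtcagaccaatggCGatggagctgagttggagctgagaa
Pax6: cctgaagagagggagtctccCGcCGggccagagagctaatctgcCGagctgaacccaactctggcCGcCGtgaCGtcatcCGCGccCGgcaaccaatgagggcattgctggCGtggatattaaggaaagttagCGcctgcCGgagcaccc
Pdx1: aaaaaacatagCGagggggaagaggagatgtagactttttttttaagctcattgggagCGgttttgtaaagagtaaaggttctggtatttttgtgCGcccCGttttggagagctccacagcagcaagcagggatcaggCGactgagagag
Iapp: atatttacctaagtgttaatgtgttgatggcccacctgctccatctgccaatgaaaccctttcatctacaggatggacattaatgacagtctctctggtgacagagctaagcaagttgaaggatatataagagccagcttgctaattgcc
These windows held 21 CpG for Isl1, 12 for Pax6, 5 for Pdx1 and 0 for Iapp, yet all 4 lay in a domain. Over the 656 protein-coding genes with a start in a domain, the median was 13.0 CpG per window (interquartile range 7.75 to 17), against 10 (6 to 15) for the other 11802 genes marked by H3K4me3. The Iapp window was 1 of 10 without any CpG among domain genes (1.52%), against 2.07% of the other marked genes.

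AP-1 sequences stood near the summits of few cJun peaks inside domains. The 5 highest cJun peaks (by rank in the DMSO list) in a domain with TGACTCA or TGAGTCA within 100 bp of the summit are shown on the plus strand of GRCm38, each with the matched bases in capitals. The Bcar1 window is chr8:111742751-111742847 (site in an intron of Bcar1), the Cirbp window chr10:80165959-80165987 (site outside annotated genes), the Fosl2 window chr5:32135843-32135871 (site in an exon of Fosl2), the Pcsk2 window chr2:143545505-143545601 (site in an intron of the antisense gene Pcsk2os1) and the Ptprn window chr1:75263379-75263475 (site nearest the summit in an intron of Ptprn). The Cirbp and Fosl2 windows were kept to the site and 11 bases on each side because they touch untranslated exon sequence.
Bcar1: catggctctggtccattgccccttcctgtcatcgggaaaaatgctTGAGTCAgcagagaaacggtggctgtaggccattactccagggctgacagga
Cirbp: gggggtggccaTGAGTCAccagctgctgt
Fosl2: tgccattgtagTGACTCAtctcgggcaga
Pcsk2: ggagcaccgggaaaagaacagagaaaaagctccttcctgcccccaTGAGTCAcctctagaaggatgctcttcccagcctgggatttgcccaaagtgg
Ptprn: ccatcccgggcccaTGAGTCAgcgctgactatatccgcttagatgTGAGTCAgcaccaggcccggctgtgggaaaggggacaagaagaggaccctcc
The cJun peaks at these sites ranked 82, 252, 572, 1299 and 1976 of 4960. The first 3 were also overlapped by a peak of the JNKi cJun list and the last 2 were not.

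Some domains without a protein-coding start held a microRNA gene. These microRNAs were named after their widths were seen. Their mature RefSeq sequences are given with the seed (bases 2 to 8) in capitals, because the seed sets which transcripts a microRNA can bind. The last pair comes from a domain that also holds protein-coding starts, and is shown because both share the seed AGCAGCA.
miR-7a-5p: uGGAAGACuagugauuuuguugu
miR-129-5p: cUUUUUGCggucugggcuugc
let-7i-5p: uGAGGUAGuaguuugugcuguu
miR-15b-5p: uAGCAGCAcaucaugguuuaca
miR-16-5p: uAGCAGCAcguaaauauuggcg

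Domain widths ran from 5000 to 23064 bp with a median of 5841 bp (interquartile range 5330 to 6860), against 1839 bp over all H3K4me3 peaks. Most were close to the threshold: 318 were under 6000 bp, 128 reached 7 kb and 33 reached 10 kb. The widest domain covered the start of Pax6 (chr2:105665114-105688177), a paired homeodomain factor of endocrine cells, and measured 23064 and 22924 bp in the replicates. The next lay at chr15:85664415-85682705 and held no annotated start, inside the noncoding genes Lncppara and Gm49539 (18291 bp). Ero1lb, an oxidase of the endoplasmic reticulum that serves proinsulin folding, lay in the next (17317 bp), followed by Isl1, a LIM homeodomain factor (16479 bp), and Cdkn2c, an inhibitor of cyclin-dependent kinases (15397 bp). The list of the 10 widest was completed by Nkx2-2 (15152 bp), the cell cycle inhibitor Cdkn1b (14642 bp), the imprinted growth factor Igf2 (14560 bp), Irf2bp2 (13150 bp) and Prkar1a, a regulatory subunit of protein kinase A (12367 bp).

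**Figure D1:**
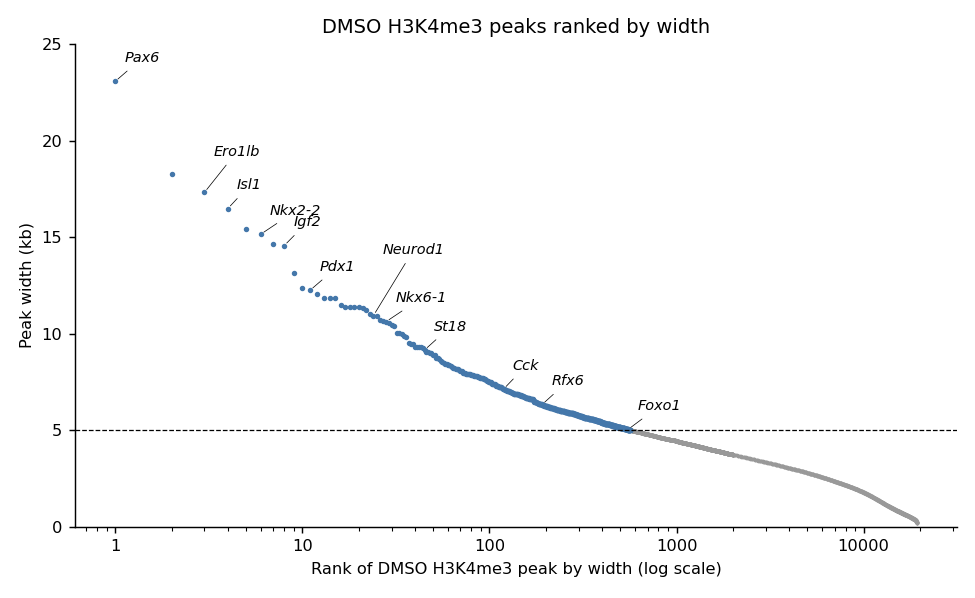
Width in kb of DMSO H3K4me3 peaks against their rank (log scale). Blue points are the 565 broad domains at or above the dashed line at 5 kb, grey points are narrower peaks (beyond rank 2000 each point stands for 20), and the labelled genes have a start in the domain. Pax6 lies apart at 23064 bp and the curve runs through the threshold without a step.

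The threshold fell in a continuous range of widths. The members just inside were at Fgfr1op2/Ints13 (5000 bp), Rgmb (5002 bp) and Agpat1/Rnf5 (5002 bp, as at Kmt2c), and the peaks just outside were at Med14 (4998 bp), Trim11 (4997 bp) and Iqcg/Rpl35a (4996 bp). The replicates gave like widths. The narrower replicate peak of a domain was a median 0.974 of the wider (lowest 0.805), and both reached 5000 bp in 468 of 565 domains.

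The −log10 p of replicate peaks was less even than their width. Of 565 domains, 71 (12.6%, 10.1 to 15.6) had a −log10 p above 100 in 1 replicate and under 20 in the other, against 3.31% (2.95 to 3.72) of the 8310 peaks of 2 to 5 kb. These included Ero1lb (521 and 4.25), Irf2bp2 (358 and 8.92), Prkar1a (6.47 and 417) and Foxa2 (429 and 7.21). In 8 domains both were under 20, as at Pdx1 (3.01 and 10.5). IDR of at most 0.05 was reached by 398 domains (70.4%, 66.6 to 74.1) against 73.0% of all H3K4me3 peaks. That share was 29.3% under 1 kb, 96.2% at 2 to 3 kb, 91.7% at 3 to 4 kb and 81.6% at 4 to 5 kb, so domains passed less often than the peaks nearest them in width. Among domains it was 73.5% at 5 to 7 kb, 61.1% at 7 to 10 kb and 57.6% from 10 kb. IDR joins the peaks of a replicate that overlap the same peak and can give the joined interval the lowest −log10 p, so these p-values do not rank the domains and a domain may span a gap. Whether that took place at a given domain was not tested.

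The domains lay at genes. A protein-coding transcript start was found in 537 (95%, 92.9 to 96.5), against 60.4% of all H3K4me3 peaks. Narrower peaks reached a like share well below the threshold, with 94.5% at 3 to 4 kb and 96.1% at 4 to 5 kb. Starts of 2 or more protein-coding genes were held by 115 domains (20.4%, 17.2 to 23.9) against 6.27% of all peaks. A whole protein-coding gene lay inside 58 (10.3%, 8.03 to 13.0) against 1.30%, and a wider interval holds more starts and more whole genes by its length alone. In all, 656 of the 12458 protein-coding genes marked by H3K4me3 had a start in a domain, or 5.27%, which is the background for the gene lists below. No test was made on any list.

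Transcription factor genes of the β cell were frequent in domains. Of 24 such genes, 21 were marked by H3K4me3 and 13 had a start in a domain (61.9% of marked, 40.9 to 79.2). The median width at the 21 was 5606 bp, against 2641 bp over all marked genes. The 13 were Pax6, Isl1, Nkx2-2, Pdx1, Neurod1, Foxa2, Nkx6-1, St18, Mafa, Rfx6, Insm1, Mnx1 and Foxo1.

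Replicate widths of the DMSO and JNKi lists that do not overlap were common. Over all overlapped H3K4me3 peaks, both JNKi widths were below both DMSO widths in 14.5% and above both in 21.7%. The shares were 16.9% and 16.8% at 3 to 5 kb, and the 565 domains gave 145 below (25.7%, 22.2 to 29.4) and 86 above (15.2%, 12.5 to 18.4). Of the 13 β cell factors, 3 were below (Nkx2-2, Foxa2 and Insm1) and 2 above (Pdx1 and Neurod1), which is near the shares over all domains.

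Pdx1, the master factor of pancreas and mature β cells, lay in a domain of 12246 bp (chr5:147268085-147280330) that covered the whole gene. Its replicate peaks measured 12246 and 12223 bp in DMSO and 13850 and 12587 bp in JNKi. Neurod1, a basic helix-loop-helix factor that drives insulin transcription, had 10871 and 10840 bp in DMSO and 12400 and 11795 bp in JNKi. For both genes the JNKi widths lay above the DMSO widths without overlap, and at both some replicate peaks had a low −log10 p. The values at Pdx1 were 3.01 and 10.5 in DMSO and 8.29 in 1 JNKi replicate. At Neurod1, 1 JNKi replicate had 5.39. Nkx6-1, a homeodomain factor that holds β against other endocrine fates, had 10619 and 10454 bp in DMSO and 10518 and 10096 bp in JNKi, so its groups overlapped. Foxa2, a forkhead pioneer factor, had 10591 and 10674 bp in DMSO and 10443 and 10300 bp in JNKi, below DMSO without overlap. Isl1 had 16479 and 16331 bp in DMSO and 16839 and 16125 bp in JNKi, which overlapped. Nkx2-2 had 15152 and 14953 bp in DMSO and 14604 and 14565 bp in JNKi, both lower. Pax6, at 23050 and 22579 bp in JNKi, overlapped its DMSO widths. Mafa, which activates insulin in mature β cells, had 6034 and 6818 bp in DMSO and 6101 and 6142 bp in JNKi. Rfx6 (6326 bp), Insm1 (5606 bp), Mnx1 (5425 bp) and Foxo1 (5036 bp) were closer to the threshold, and St18 reached 9155 bp at an internal start. In JNKi the widest peak at Insm1 was 5015 bp and at Foxo1 4778 bp.

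The other marked β cell factors had narrower peaks. Mlxipl, the glucose-responsive factor ChREBP, missed the threshold at 4977 bp. Rfx3 had 4602 bp, Myt1 4435 bp and Glis3 4000 bp. Foxa1 had 1912 bp and Tcf7l2 948 bp at the starts that were marked. Hnf4a and Pax4 had no start in a DMSO or JNKi H3K4me3 peak.

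**Figure D2:**
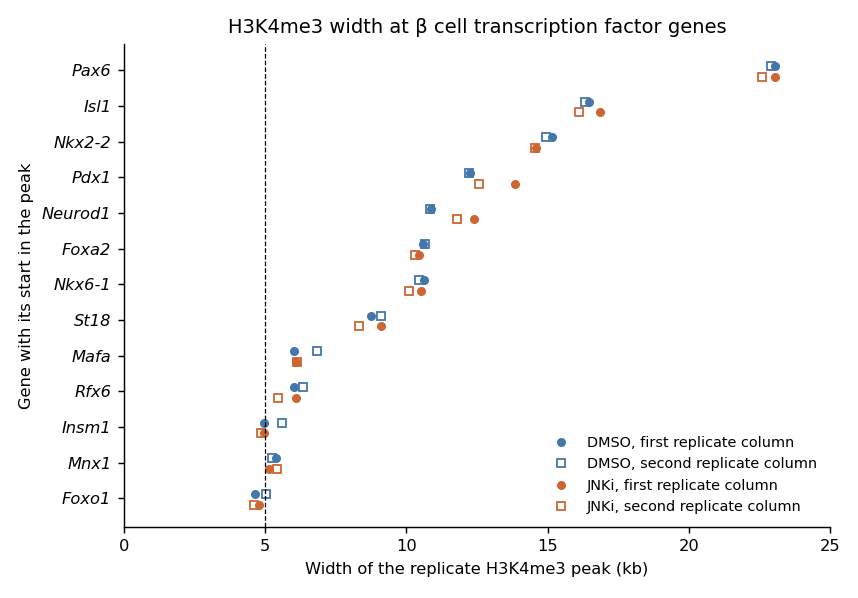
Width in kb of the H3K4me3 peak in each replicate column of the DMSO (blue) and JNKi (orange) lists at the 13 β cell transcription factor genes with a start in a domain, ordered by DMSO width. The dashed line is at 5 kb. The JNKi replicates at Pdx1 (13850 and 12587 bp) lie further apart than the DMSO replicates (12246 and 12223 bp). Both JNKi points lie right of both DMSO points at Pdx1 and Neurod1, or 2 of 13 genes, beside 15.2% of all domains.

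Genes of insulin secretion were also frequent in domains. Of 26, 24 were marked and 13 had a start in a domain (54.2% of marked, 35.1 to 72.1). The prohormone convertases that cut proinsulin were both there, Pcsk2 at 8729 bp and Pcsk1 at 7020 bp, as were the granule proteins Chga (7499 bp), Scg3 (6003 bp), Chgb (5907 bp) and Scg2 (5772 bp). Both subunits of the ATP-sensitive potassium channel had a domain, Kcnj11 (5647 bp) and Abcc8 (5155 bp), which are neighbours on chromosome 7. The others were Ero1lb, the glucose-6-phosphatase subunit G6pc2 (6879 bp), the amylin gene Iapp (6089 bp), the zinc transporter Slc30a8 (5901 bp) and the incretin receptor Glp1r (5163 bp). Ins2 lay just outside, at 4939 bp (5179 bp in JNKi), and Ins1 had no start in a peak of either list. The peak at the glucose transporter gene Slc2a2 was narrower (2391 bp). Scg2 was the member of this list with the lowest ratio of JNKi to DMSO width. It had 5768 and 5620 bp in DMSO and 4086 and 3702 bp in JNKi, with a DMSO −log10 p of 624 and 4.8.

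Of the 7 islet hormone genes other than insulin, 2 were marked. Cck, which encodes cholecystokinin, was in a domain of 7132 bp (chr9:121489235-121496366) that measured 7132 and 7042 bp in DMSO and 7362 and 7178 bp in JNKi, above DMSO without overlap, as in 15.2% of domains. The −log10 p of its second JNKi replicate was 4, against 536 in the first. The domain itself held no cJun peak in either list, and cJun peaks beyond its edges were not examined at Cck. The paper reports cJun enrichment downstream of the Cck 3′ end, at a site beyond the edge of this domain. Gcg had 1588 bp, and Ghrl, Gast, Ppy, Pyy and Sst had no marked start.

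No acinar (0 of 11), mesenchymal (0 of 8), endothelial (0 of 5) or immune marker (0 of 6) had a start in any DMSO H3K4me3 peak. Of 5 duct markers, Krt7 (3936 bp), Muc1 (2600 bp) and Spp1 (866 bp) were marked and none lay in a domain. None of 39 Hox genes was marked. Of 19 other pancreatic transcription factors, 9 were marked and 2 were in domains (22.2% of marked, 6.32 to 54.7), Hes1 (5546 bp) and Sox4 (5478 bp). Of 15 genes that β cells normally keep silent, 12 were marked and Maf (8207 bp) was in a domain (8.33% of marked, 1.49 to 35.4).

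Across all families, 73 transcription factor genes had a start in a domain, 11.1% of the 656 genes, against 6.54% of marked genes. The share differed between families. Of the 459 marked zinc finger genes of the C2H2 type, the largest family, 22 were in domains (4.79%, 3.19 to 7.15), close to the 5.27% over all marked genes. Of the other 356 marked factors, 51 were in domains (14.3%, 11.1 to 18.3). The homeobox family had 13 of 79 marked genes in domains (16.5%), basic helix-loop-helix 9 of 58 (15.5%), basic leucine zipper 9 of 45 (20.0%), forkhead 4 of 20 (20.0%), nuclear receptors 6 of 32 (18.8%), HMG box 2 of 11 (18.2%) and the remaining families 8 of 111 (7.21%). These families were counted with the β cell factors in them.

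Of 20 AP-1 and immediate early genes, all were marked and 5 were in domains. They were Fosl2 (7254 bp), Atf4 (5870 bp), Ier2 (5868 bp), Junb (5796 bp) and Myc (5262 bp). Jun, which encodes cJun itself, had 4382 bp (4802 bp in JNKi), and Fos had 4211 bp (4201 bp in JNKi). Of 80 ribosomal protein genes, 76 were marked and 9 were in domains (11.8% of marked, 6.36 to 21), 6 of them in a domain that also held another type of gene.

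Members of further families were noticed among the domains after their widths were seen, and each family was then counted whole. Of 10 dual-specificity phosphatases that inactivate MAP kinases, 9 were marked and 5 were in domains. Dusp10, which acts on JNK and p38, had 7609 and 7572 bp in DMSO and 5484 and 5532 bp in JNKi. Dusp5 had DMSO widths of 8330 and 8240 bp and JNKi widths of 6741 and 6709 bp, and Dusp6 had 7657 and 7361 bp against 6513 and 6254 bp. Dusp7 had 5149 and 4440 bp in DMSO and 4350 and 4271 bp in JNKi, and Dusp4 had 11836 and 11658 bp against 11934 and 11721 bp. At Dusp5, Dusp6, Dusp7 and Dusp10 both JNKi widths were below both DMSO widths, as they were in 25.7% of all domains, and the family was picked with these widths in view. A DMSO replicate had a −log10 p under 20 at Dusp10 (12.1 and 13.0), Dusp6 (6.47 and 377) and Dusp5 (533 and 16.6). At Dusp5, 2 JNKi peaks together spanned 8688 bp. Outside the domains, Dusp8 went the other way, with 2562 and 2748 bp in DMSO and 4484 and 4348 bp in JNKi, and Dusp1 was also wider in JNKi (3583 and 3553 bp against 3381 and 3283 bp).

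Of 7 inhibitors of cyclin-dependent kinases, 4 were in domains, Cdkn2c, Cdkn1b, Cdkn2d (6170 bp) and Cdkn2a (6017 bp). Of 6 H3K4 methyltransferase genes, 4 were in domains. Setd1b had 11268 and 11313 bp in DMSO and 13866 and 13778 bp in JNKi, wider without overlap, while Kmt2d was narrower (5615 and 6182 bp against 4916 and 5209 bp) with a −log10 p of 887 and 4.6 in DMSO. Kmt2a (5081 bp) and Kmt2c (5002 bp) were near the threshold. Of the 4 Id genes, which encode inhibitors of helix-loop-helix factors, Id2 (9272 bp), Id3 (5632 bp) and Id1 (5611 bp) were in domains.

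The 28 domains without a protein-coding start split evenly into 14 that held the start of a noncoding gene and 14 that held no start. The former included the nuclear RNA genes Malat1 (10560 bp) and Neat1 (7824 bp), Lncpint (10401 bp), Dleu2 (8416 bp), the imprinted Peg13 (7572 bp) and Paupar (5067 bp), the neighbour of Pax6. Mir7-2, the gene of the islet-enriched miR-7, lay in a domain of 7612 bp that reached 9644 bp in JNKi. Mir129-2 (6896 bp, and 6851 bp in JNKi) and Mirlet7i (5916 and 5713 bp) also had domains. In all, 25 of the 213 microRNA genes with a start in an H3K4me3 peak were in domains (11.7%), which hold 9.25% of the bases under the mark. No share over all noncoding genes was computed. Those at protein-coding genes included Mir483 in the Igf2 domain and Mir15b with Mir16-2 in the Ift80/Smc4 domain (9978 bp). Among the domains without any start, 13 lay inside a gene, as at Ubr4 (10036 bp), and 1 lay between genes at chr13:116704676-116713030 (8355 bp).

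Most of the width lay downstream of the start, in the gene, as it did in narrower peaks. In the 376 domains with a single protein-coding gene whose 5′ end was inside, the mark reached a median 1444 bp upstream and 4410 bp downstream. The downstream arm was the longer in 354 (94.1%, 91.3 to 96.1). In the 5823 peaks of 2 to 5 kb chosen the same way, the medians were 864 and 1958 bp and the share was 94.2%. The downstream arm passed the end of the gene in 38 domains (10.1%) and 1.58% of those narrower peaks. Pax6 had 3786 bp upstream and 19277 bp downstream, and Ero1lb 1333 and 15983 bp. At Foxa2, Mafa and Neurod1 the downstream arm (9984, 6271 and 6477 bp) ran past the gene's end.

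**Figure D3:**
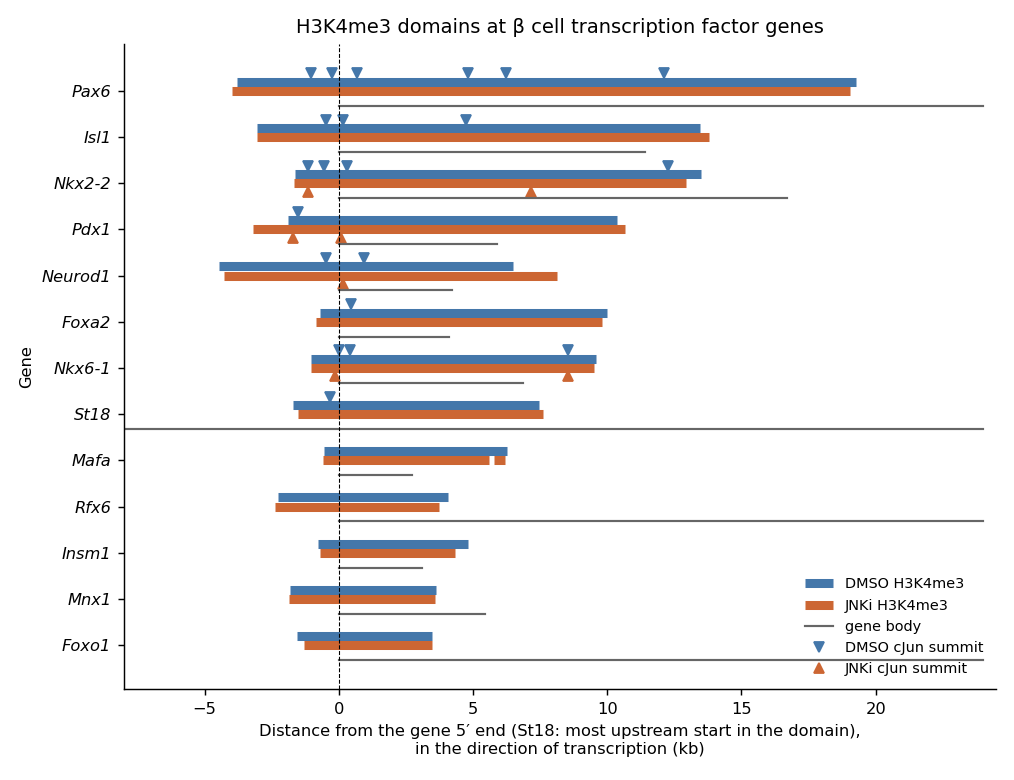
H3K4me3 domains at 13 β cell transcription factor genes, drawn in kb from the annotated gene 5′ end in the direction of transcription (for St18, from the most upstream start in the domain). Bars are DMSO (blue) and JNKi (orange) peaks, grey lines gene bodies cut at the frame, and triangles cJun summits of the DMSO list (pointing down) and the JNKi list (pointing up). The JNKi bar reaches further than the DMSO bar upstream of Pdx1 and downstream of Neurod1, Mafa has 2 JNKi bars, and Pax6 carries 6 DMSO cJun summits and none of the JNKi list.

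Base composition of the domains was close to that of narrower peaks. The median GC content was 49.7% (49.1 to 50.5), against 51.7% (51.6 to 51.8) at 2 to 5 kb. The median ratio of observed to expected CpG was 0.555 (0.537 to 0.569), against 0.570 (0.566 to 0.574) at 2 to 5 kb and 0.444 (0.439 to 0.449) under 2 kb. Among the domains it fell with width, from 0.564 at 5 to 7 kb to 0.529 at 7 to 10 kb and 0.478 from 10 kb. TGACTCA or TGAGTCA occurred 0.143 times per kb in domains and 0.136 times per kb in peaks of 2 to 5 kb.

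The domains were found again in the JNKi H3K4me3 list. All 565 were overlapped by a JNKi peak, against 93.4% of all DMSO H3K4me3 peaks, and every peak of 3 kb or more was overlapped as well. JNKi peaks covered a median 98.6% of a domain, and at least 90% of it in 527 (93.3%), close to the 92.4% of peaks of 3 to 5 kb. The widest overlapping JNKi peak was a median 0.997 times the DMSO width (0.993 to 1.00, interquartile range 0.962 to 1.03). For peaks of 3 to 5 kb the median was 1.00 (interquartile range 0.965 to 1.04). The width stayed within 10% of DMSO in 482 domains (85.3%).

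Because domains were chosen for being wide in DMSO, their JNKi width can be lower through that choice, and the reverse comparison showed the same. The JNKi list held 584 peaks of at least 5000 bp, all overlapped by a DMSO peak, and their DMSO width was a median 0.991 (0.987 to 0.995) of the JNKi width. Of the 565 DMSO domains, 501 (88.7%, 85.8 to 91.0) were at least 5000 bp in JNKi. Of the 584 JNKi domains, 500 (85.6%, 82.5 to 88.2) were at least 5000 bp in DMSO. Of the 64 DMSO domains under 5000 bp in JNKi, 51 had been under 5500 bp in DMSO.

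The number of broad peaks per replicate overlapped between treatments. Replicate peaks of at least 5000 bp numbered 508 and 511 in the DMSO list (509.5 ± 2.12, SD, n = 2) and 553 and 459 in the JNKi list (506.0 ± 66.5, SD, n = 2). The median replicate width over the 565 domains was 5692 and 5706 bp in DMSO and 5762 and 5534 bp in JNKi, so the JNKi values lay on both sides of DMSO. In the reverse set, both DMSO widths were below both JNKi widths in 137 of 584 (23.5%) and above in 97 (16.6%).

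Replicate peaks with a low −log10 p moved with these differences. Of the 145 domains narrower in JNKi by both replicates, 36 (24.8%) had a DMSO replicate with a −log10 p under 20 and 12 (8.28%) a JNKi replicate, against 82 (14.5%) and 83 (14.7%) of all 565. Of the 86 wider in JNKi, 4 (4.65%) had such a DMSO replicate and 31 (36.0%) such a JNKi replicate. Their part in the differences was not tested.

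**Figure D4:**
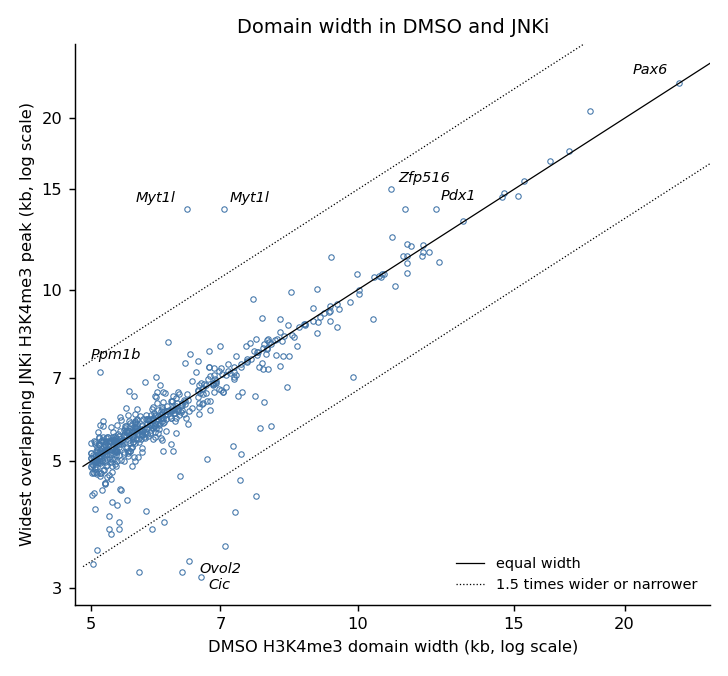
Width of the widest overlapping JNKi H3K4me3 peak against the DMSO width for the 565 broad domains, both in kb on log scales. The solid line marks equal width and the dotted lines a 1.5-fold difference. Points follow the solid line, with 11 below the lower dotted line and the 2 Myt1l domains above the upper.

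Few domains differed by 1.5-fold. JNKi width was at most 1/1.5 of DMSO in 11 of 565 (1.95%, 1.09 to 3.45), against 2.02% of all overlapped peaks, and at least 1.5 times in 2 (0.354%, 0.0971 to 1.28), against 4.20%. All 11 narrower domains were overlapped by 2 or more JNKi peaks, which together spanned 0.95 to 1.09 of the DMSO width. The lowest ratios were at Cic, a transcriptional repressor (0.472, 6652 bp in DMSO, 3 JNKi peaks spanning 6902 bp), Arpc5l/Rpl35 (0.501, 7082 and 6849 bp) and Dnajb14/H2afz (0.505, 6335 and 6341 bp). Whether a like gap was joined over in the DMSO list was not tested. The count went the other way at Myt1l, a zinc finger factor of neurons and endocrine cells. There, 2 neighbouring DMSO domains of 6411 and 7071 bp lay in 1 JNKi peak of 13868 bp (ratios 2.16 and 1.96). The highest ratio after them was at the phosphatase gene Ppm1b (1.40, 5117 bp in DMSO and 7182 bp in JNKi).

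cJun peaks lay in 37.3% of the domains in DMSO and in 14.7% in JNKi. The whole JNKi cJun list was shorter, with 1632 peaks against 4960 in DMSO. Peaks overlapping domains made up 6.03% of the DMSO list and 5.88% of the JNKi list. A DMSO cJun peak overlapped 211 (37.3%, 33.5 to 41.4), against 12.6% of all H3K4me3 peaks, and a JNKi cJun peak overlapped 83 (14.7%, 12 to 17.8), against 4.42%. The share rose with width in both lists. In DMSO it was 11.9% (11 to 12.9) at 2 to 3 kb, 20.6% (18.2 to 23.3) at 4 to 5 kb, 31.1% (27 to 35.6) at 5 to 7 kb, 51.6% (41.7 to 61.4) at 7 to 10 kb and 78.8% (62.2 to 89.3) from 10 kb. A longer interval meets more peaks by its length alone, so the density was also computed.

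Per Mb, domains held 81.6 DMSO cJun summits (72.6 to 91.3), against 63.4 (60.8 to 66.0) over all narrower H3K4me3 peaks and 51.8 (49.0 to 54.7) in peaks of 2 to 5 kb. Within the domains the density was 69.9 (59.9 to 81.1) at 5 to 7 kb and 106 (88.3 to 126) from 7 kb. Peaks of 1 to 2 kb had 70.9 per Mb, close to domains of 5 to 7 kb, and peaks under 1 kb had 131. In the JNKi list, which was shorter, domains held 25.9 summits per Mb (21 to 31.7), an interval that holds the 21.3 (19.8 to 22.9) over all narrower peaks. The density in that list was 17.2 (15.6 to 18.9) at 2 to 5 kb, 25.3 at 1 to 2 kb and 42.5 under 1 kb. Most cJun peaks of the list had a high IDR. An IDR of at most 0.05 was reached by 32 of the 299 DMSO cJun peaks at domains (10.7%, 7.68 to 14.7), by 9.62% of those at narrower H3K4me3 peaks and by 8.09% of those outside H3K4me3. Peaks that passed overlapped 29 domains (5.13%, 3.60 to 7.27), against 1.32% of all H3K4me3 peaks, in DMSO and 14 (2.48%, 1.48 to 4.12), against 0.826%, in JNKi.

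**Figure D5:**
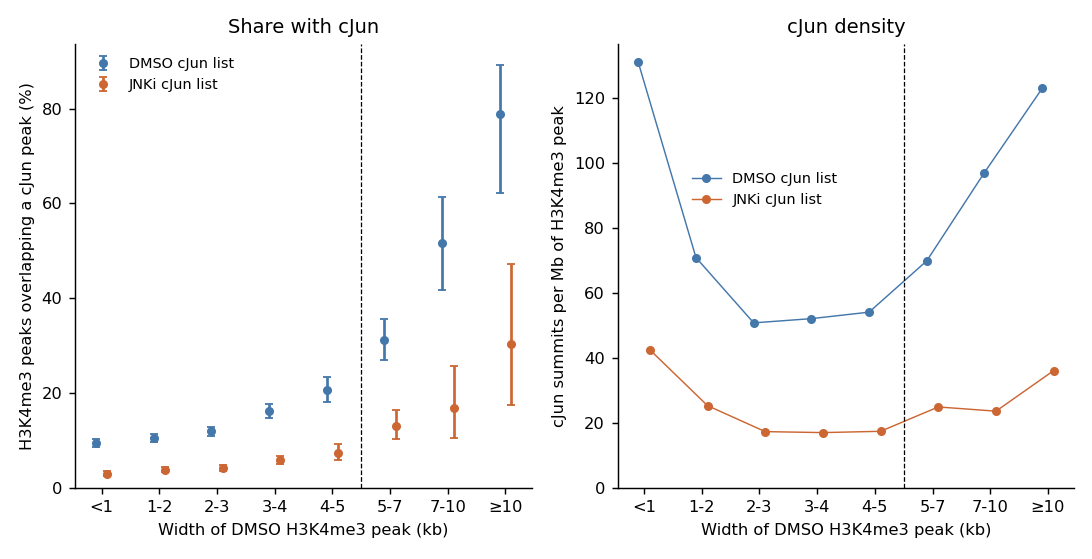
Left, share of DMSO H3K4me3 peaks that overlap a cJun peak (%), by H3K4me3 width in kb, with Wilson 95% intervals. Right, cJun summits per Mb of H3K4me3 peak in the same classes. Blue is the DMSO cJun list, orange the JNKi list, and broad domains lie right of the dashed line. The DMSO share climbs from 31.1% at 5 to 7 kb to 78.8% from 10 kb, and the density falls from 131 per Mb in the narrowest class before it rises among the domains.

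The cJun peaks at domains were close to transcript starts. Of the 299, 208 summits (69.6%, 64.1 to 74.5) lay within 1 kb of the start of a GENCODE basic transcript, against 57.1% (55.1 to 59.1) of the 2350 cJun peaks at narrower H3K4me3 peaks. That comparison pools all narrower widths. A protein-coding start was held by 12.3% of H3K4me3 peaks under 1 kb, 56.2% at 1 to 2 kb and 89.2% at 2 to 3 kb. An AP-1 sequence was within 100 bp of the summit in 10 of 299 (3.34%, 1.83 to 6.05), against 10% of all DMSO cJun peaks and 5.74% (4.87 to 6.76) of those at narrower H3K4me3 peaks. It was found in 15.2% (13.8 to 16.7) of the 2311 cJun peaks outside H3K4me3. Neither the start share nor the AP-1 share was computed for cJun peaks at H3K4me3 peaks of 2 to 5 kb alone. Whether domains differ in them from peaks nearer in width was not tested. A JNKi cJun peak overlapped 60 of the 299 (20.1%, 15.9 to 25), against 23.6% of all DMSO cJun peaks.

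Pax6 held the most cJun peaks, 6 in the DMSO list and 0 in the JNKi list. They ranked 2001 to 3906 of 4960, with an IDR of 0.369 to 0.729, so none reached 0.05. Next came 4 domains with 4 DMSO cJun peaks each. Nkx2-2 had 2 JNKi cJun peaks, its highest DMSO peak ranked 665 and an AP-1 sequence lay at the peak ranked 3693. Cdkn1b had 0 JNKi cJun peaks and a highest DMSO rank of 366. The others were Irf2bp2 (2 JNKi cJun peaks) and Gse1, whose domain was only 5031 bp wide (0 JNKi cJun peaks). Isl1 and Nkx6-1 held 3 DMSO cJun peaks each, with 0 and 2 in JNKi, and Neurod1 held 2 with 1 in JNKi. Pdx1 held 1 in DMSO and 2 in JNKi. Foxa2 and St18 held 1 each in DMSO and 0 in JNKi, and the Foxa2 peak ranked 185 with an IDR of 0.00955. Mafa, Rfx6, Insm1, Mnx1 and Foxo1 held 0 in both lists.

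Width in JNKi was compared between domains by their cJun peaks. The median ratio of JNKi to DMSO width was 0.994 (0.986 to 1.00) in the 151 domains with a cJun peak in DMSO alone, 1.01 (0.999 to 1.02) in the 60 with a peak in both lists, 1.01 (0.978 to 1.04) in the 23 with a peak in JNKi alone and 0.994 (0.989 to 0.999) in the 331 with neither. These differences were not tested. Between replicate columns the median ratio differed more, at 1.01 in the first and 0.974 in the second. Those ratios cover other sets, the 508 and 511 peaks of at least 5000 bp in the DMSO column used. The DMSO and JNKi columns were paired by position, without a replicate number.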

How the data were processed

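CUT&RUN was performed in Min6 cells (12 samples, 6 groups of 2, grouped by their labels). The authors trimmed reads with Trimmomatic, aligned them to GRCm38 with Bowtie2 2.4.2, filtered with SAMtools 1.16, called narrow peaks per replicate against IgG with MACS2 2.2.7.1 and paired replicates with IDR. The deposited lists give coordinates, a score scaled from the global IDR, and −log10 p-values and −log10 IDR, per the authors' output. Counts and depth were not analysed here. An IDR interval spans both replicate peaks, so a merged width is at least that of either replicate.

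Domains are merged peaks of at least 5000 bp. Overlap needed 1 bp. A gene was covered when any start of a GENCODE vM21 basic transcript (GRCm38) lay in the domain, and genes sharing a symbol were counted once. Domains are named by those genes. Width in JNKi is that of the widest overlapping peak. Motifs were searched on both strands. The members and lists were chosen with earlier results of these data known. Genes named are the 10 widest domains, β cell factors, members of fixed lists, extremes of width ratio and cJun count, neighbours of the threshold and Cck. Other names were chosen after values were seen, and some list members are counted but not reported here. Overlap, point and joining steps were tested on simulated data. Versions were matplotlib 3.10.9, pysam 0.24.0, SciPy 1.17.1 and, under Python 3.11.15, pandas 2.3.3 with numpy 2.4.6.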

Additional observations from a re-analysis of the deposited data

How the results depend on the processing

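Of 100 alternative values, 76 stayed within the 95% interval of the reported value or, for counts, within 1.5 times it. The threshold moved most of the rest. At 4000 bp there were 1525 domains, of which 26.8% had a DMSO and 10.1% a JNKi cJun peak, with 66.8 DMSO cJun summits per Mb, 8.66% transcription factors among covered genes and 37.2% at least 5000 bp in JNKi. At 6000 bp there were 247 domains, with 47.4%, 18.6%, 91.7 per Mb, 15.6% and 96.4% in the same order, and a median CpG ratio of 0.529. The limit in JNKi stayed at 5000 bp under both thresholds, so the shares of 37.2% and 96.4% follow from the setting. At 4000 bp, 960 of the 1525 were already under 5000 bp in DMSO. The β cell factors covered were 19 at 4000 bp and 10 at 6000 bp.

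With cJun peaks of IDR at most 0.05, 5.13% of domains had a DMSO and 2.48% a JNKi cJun peak, at 8.73 DMSO summits per Mb. With DMSO peaks at most 1 kb apart joined, while the JNKi peaks stayed as deposited, the median width ratio was 0.972, 71.5% were at least 5000 bp in JNKi and the CpG ratio was 0.526. Widths in the first replicate column gave a median ratio of 1.01 and those in the second 0.974, with 81.8% at least 5000 bp in JNKi, so the direction of the ratio is not settled. The span of all overlapping JNKi peaks gave 91.3% at least 5000 bp. The gene 5′ end alone gave 86.9% of domains with a protein-coding start.

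Domains with IDR of at most 0.05 (398), and domains with both −log10 p at 20 or more (483, an alternative chosen after seeing the data), moved none of the recomputed values by these limits. Not recomputed were the shares of replicate widths without overlap, the gene lists other than transcription factors and the AP-1 share. No paired analysis was possible because the columns of the replicates are unnumbered in the single list of each treatment. Results without 1 replicate could not be had, because peaks missing from either replicate are not listed. The widths of each replicate column took their place.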
